A study of Mus musculus with 12 samples.

Results

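The genes described are the cytosolic ribosomal protein genes of the mouse, which encode the protein part of the ribosome outside mitochondria. They were chosen by name alone, as protein-coding genes whose symbol was Rpl or Rps followed by a number, with at most a short suffix, or was Rpsa, Rplp0, Rplp1 or Rplp2. Of 53715 genes listed in the count table, 83 met this rule, 51 of the large and 32 of the small subunit. No measured value entered this rule, though earlier results of these data were known when genes, lists and tests were chosen. A further 6 genes with matching symbols were left out because the annotation lists them as pseudogenes.

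Poly(A) RNA of primary mouse liver cells of the strain C57BL/6JOlaHsd had been sequenced as 75-base single reads, with 4 biological replicates in each of 3 groups. Hepatoblasts, the embryonic progenitors of hepatocytes and bile duct cells, had been isolated from pooled livers at embryonic stage E14.5 by the surface protein Dlk1 and processed directly. Differentiated hepatocytes (Diff. hepatocytes) were such E14.5 cells after 4 days on fibronectin in a differentiation medium with dexamethasone and Matrigel. Mature hepatocytes came from adult male mice aged 8 to 12 weeks by collagenase perfusion and were processed directly. The labels name no transgene or deletion in any group. Age, isolation and culture differ together between the groups and cannot be told apart. The study names no sex for the pooled embryos, so sex may differ as well.

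A ribosome is built from a small subunit, which reads the mRNA, and a large subunit, which joins the amino acids. Each subunit holds its proteins in fixed proportion, so the genes are usually expressed together and at high level, and most strongly in growing cells. Many of their mRNAs begin with a C followed by a run of pyrimidines, the 5' terminal oligopyrimidine (TOP) tract, through which translation of the whole class responds to mTOR signalling and the Larp1 protein.

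The libraries held between 19581551 and 25216977 counts, and the labels of the groups were checked with marker genes. Mean Dlk1 level, in CPM (counts scaled to library size, here by the TMM method), was 3521 in hepatoblasts, 94.1 in Diff. and 4.19 in mature hepatocytes. The adult enzyme Cyp2e1 was at 6500 CPM in mature hepatocytes but at 3.24 in Diff. hepatocytes, close to the 2.82 of hepatoblasts. Most adult hepatocyte markers differed from Cyp2e1 in this. Of 6 such markers, 5 were called higher in Diff. hepatocytes than in hepatoblasts, and 5 lower than in mature hepatocytes. The 6 summed to 27.7 to 46.4 CPM in hepatoblasts, 6338 to 7558 in Diff. and 18200 to 24520 in mature hepatocytes. Hepatoblast replicate 1 stood apart, with a summed erythroid marker level of 3124 CPM against 383 to 635 in the other 3 libraries. Its proliferation markers summed to 2601 CPM against 1552 to 1751, and its macrophage markers to 337 CPM against 83.2 to 106. The shares, counts of called genes, gene lists and paralogue ratios that rest on hepatoblasts are given below with and without this library.

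Ribosomal protein mRNA took up a smaller share of the mature hepatocyte libraries than of either other group. In hepatoblasts, 4.06%, 3.44%, 3.23% and 3.07% of all counts fell on the 83 genes, a mean of 3.45% ± 0.430 (SD, n = 4), or 3.25% ± 0.186 without replicate 1. In Diff. hepatocytes the shares were 2.68%, 2.88%, 2.83% and 2.88%, a mean of 2.82% ± 0.0952. In mature hepatocytes they were 0.842%, 0.970%, 0.985% and 0.905%, a mean of 0.925% ± 0.0657. The 3 groups did not overlap, and the mean share of mature hepatocytes was 3.73 times below that of hepatoblasts and 3.04 times below that of Diff. hepatocytes. Every hepatoblast library, replicate 1 or not, lay above every Diff. hepatocyte library. All 12 proliferation markers were called lower in both other groups than in hepatoblasts. They summed to 1552 to 2601 CPM in hepatoblasts, 102 to 190 in Diff. and 46.4 to 57.3 in mature hepatocytes. Against hepatoblasts their median log2 fold change was -4.0 in Diff. and -6.2 in mature hepatocytes, where the mean share was 1.225 and 3.73 times lower. The part of these markers in the result was not tested. Of 9 mesenchymal markers, 7 were called lower in mature hepatocytes than in hepatoblasts and 8 lower than in Diff. hepatocytes, and their sum was 678 to 1320 CPM in hepatoblasts, 1221 to 2965 in Diff. and 48.6 to 65.9 in mature hepatocytes. All 11 erythroid markers were called lower in Diff. hepatocytes than in hepatoblasts, with sums of 383 to 3124 and 7.55 to 29.9 CPM. In mature hepatocytes 10 of them were called lower than in hepatoblasts, with Epb42 and Gata1 at 0 in each library, and the sum of 135 to 185 CPM was mostly Alas2, the first enzyme of haem synthesis, at a mean of 151 CPM. Endothelial markers summed to 34.5 to 138, 4.93 to 10.8 and 111 to 209 CPM. The part of the mesenchymal, erythroid and endothelial markers in the result was not tested either. In such bulk libraries, fewer cells with high ribosomal protein expression and less of this mRNA per cell cannot be told apart.

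The share depends on what fills the rest of the library. Without the 50 most abundant other genes it was 4.60% ± 0.388 in hepatoblasts, 4.35% ± 0.173 in Diff. and 1.40% ± 0.0776 in mature hepatocytes. On that base hepatoblasts, at 4.26% to 5.15%, overlapped Diff. hepatocytes, at 4.10% to 4.49%, and mature hepatocytes lay below both. The large-subunit counts were 1.32 ± 0.0114 times the small-subunit counts in hepatoblasts, 1.34 ± 0.0148 in Diff. and 1.33 ± 0.0182 in mature hepatocytes. Across all 12 libraries this ratio stayed between 1.31 and 1.36, while the share itself spanned 0.842% to 4.06%.

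**Figure D1:**
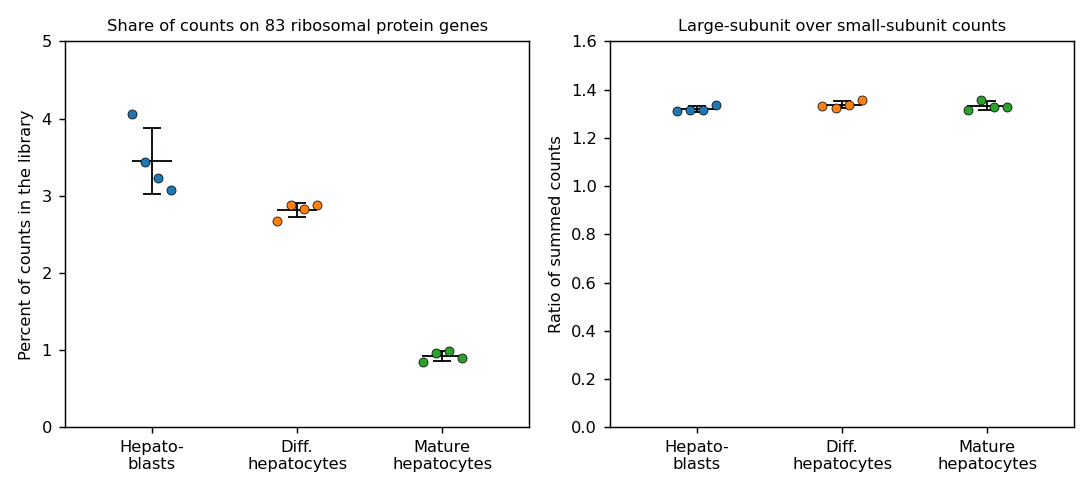
Left, percent of each library's counts on the 83 ribosomal protein genes; right, counts on large-subunit genes over counts on small-subunit genes, both axes from 0, with a point per library and bars for the mean and SD of 4 libraries. The share lies at 3.07% to 4.06% in hepatoblasts, 2.68% to 2.88% in Diff. and 0.842% to 0.985% in mature hepatocytes, while the subunit ratio lies between 1.31 and 1.36 throughout.

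Of the 83 genes, 80 had more than 10 counts in at least 1 library and were tested among 17779 genes. The other 3 are paralogues with few reads: Rpl10l had 1 to 8 counts per library, Rpl39l 0 to 9 and Rpl3l 0 to 6. A pair of tested genes was also nearly unread, which touches every statement on them. Rpl24 had 23, 19, 8 and 21 counts in hepatoblasts, 7, 10, 10 and 7 in Diff. and 1, 1, 3 and 1 in mature hepatocytes, and 71.5% of its transcript overlaps another annotated gene on the same strand. Rpl23a had 19 to 48, 17 to 23 and 2 to 7 counts in the same groups, and 55.4% of it overlaps the antisense gene Tlcd1. Whether the counting used strand was not stated.

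Levels between genes were compared per kilobase of the principal transcript. Its median length is 799 bases, but it has 5179 in Rps15a and 3706 in Rps20, whose levels per kb may therefore be too low. The median gene stood at 350 CPM per kb in hepatoblasts, 349 in Diff. and 177 in mature hepatocytes. Rplp1, an acidic protein of the ribosomal stalk, was highest in each group, at 1995, 3017 and 1127 CPM per kb. Rps14 followed at 1247, 1283 and 641, and Rps15 was at 1096, 970 and 603. At the low end, beside Rpl24 and Rpl23a, stood Rpl7l1, at 40.7 CPM per kb in hepatoblasts and 26.8 in Diff. hepatocytes. Ribosomal protein genes have many processed pseudogenes with near-identical sequence, and this limits such levels. A median of 54.1% of the 75-base windows of their transcripts was found in no other annotated gene, 12 genes had under 20% of such windows, and 4 had only such windows. Both strands were searched, so windows shared with an overlapping gene count too, and the figures do not measure pseudogenes alone. In Rpl35, with 10.8% unique windows, 68.3% of the transcript overlaps antisense genes.

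The genes lie on 19 chromosomes, with 14 on chromosome 7 and 4 on X. A small nucleolar RNA (snoRNA) gene lay inside 30 of them (36.1%), against 1.18% of all 21890 protein-coding genes in the table. RefSeq promoter windows in GRCm38.p6 were at hand for 63 of the 83 genes, with 75 windows in all among 32851 for all genes. A tract of C followed by at least 4 pyrimidines, on the transcribed strand and starting within 3 bases of the RefSeq start, was found in 26 of the 75 windows (34.7%), belonging to 25 genes, against 11.5% of all windows. The letters CCGGAAG, on either strand between 250 bases before and 50 after the start, were in 36.0% of them against 8.86% of all windows, and AAGATGGCG in 8.0% against 1.40%. A match is a description of the sequence and not a site of action. The stretches from 30 bases before the start to 20 bases after it follow, 5' to 3', for genes on which the results turn. Capitals mark the tract, and the last 3 genes have none that starts within 3 bases of the annotated start.
Rps6 (chr4:86857348-86857397, minus strand): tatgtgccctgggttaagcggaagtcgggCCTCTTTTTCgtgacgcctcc
Rpl15 (chr14:18270967-18271016, minus strand): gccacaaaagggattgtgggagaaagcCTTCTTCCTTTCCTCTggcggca
Rpl13a (chr7:45128726-45128775, minus strand): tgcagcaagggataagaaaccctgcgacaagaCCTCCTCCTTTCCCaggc
Rps15a (chr7:118116128-118116177, minus strand): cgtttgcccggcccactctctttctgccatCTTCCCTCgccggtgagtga
Rpl12 (chr2:32961682-32961731, plus strand): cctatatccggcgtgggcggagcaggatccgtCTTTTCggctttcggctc
Rps27 (chr3:90213629-90213678, minus strand): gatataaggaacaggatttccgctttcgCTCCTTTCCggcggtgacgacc
Rps27l (chr9:66946056-66946105, plus strand): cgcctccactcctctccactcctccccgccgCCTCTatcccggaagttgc
Rpl22l1 (chr3:28805478-28805527, plus strand): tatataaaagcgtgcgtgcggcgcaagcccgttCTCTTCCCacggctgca
Rplp0 (chr5:115559437-115559486, plus strand): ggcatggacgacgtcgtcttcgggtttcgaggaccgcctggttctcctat
Rps12 (chr10:23787190-23787239, minus strand): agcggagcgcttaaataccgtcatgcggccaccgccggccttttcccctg
Rpl7l1 (chr17:46782637-46782686, minus strand): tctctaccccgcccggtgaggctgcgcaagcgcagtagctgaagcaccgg

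In mature hepatocytes against hepatoblasts, which sets adult against embryonic cells, the ribosomal protein genes were lower almost without exception. Calls required that edgeR's quasi-likelihood test gave an adjusted p under 0.01, together with a log2 fold change over 1 in either direction. By this rule 49 of the 80 genes were called lower and 0 higher, where 24.7% of all genes tested were called lower and 20.1% higher, 44.8% in all. At the adjusted p alone, 79 were lower and 1 was higher, against 33.2% and 29.4% of all genes. For those 79 genes every adult library lay below every embryonic library, as was so for 35.9% of all genes, and for the remaining gene every adult library lay above, as for 30.1%. The median log2 fold change was -1.07, a 2.10-fold lower level, with quartiles of -1.23 and -0.94, where all genes had a median of -0.15 and quartiles of -1.33 and 0.83. The quartiles of the ribosomal protein genes thus lay closer together than those of all genes tested. The latter include genes with few counts and were not matched for level.

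How far they stood below depends on the scaling. With library totals in place of TMM the median was -1.92 while that of all genes moved to -1.0, and 79 genes were called lower, as were 44.5% of all genes. The distance between the medians was -0.92 under TMM, -0.92 under library totals and -0.91 when libraries were scaled to the summed ribosomal protein counts. A change of scaling moves all genes by nearly the same amount, so this near equality was fixed in advance. Leaving out hepatoblast replicate 1 left 48 genes called. In large-subunit genes the median was -1.05, with 28 of 48 called lower, and in small-subunit genes -1.12, with 21 of 32 called lower.

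Rpl13a, a large-subunit protein that also acts in an interferon-induced block of translation, was the lowest of the well-read genes. It was at 58.2, 63.7, 60.8 and 54.4 CPM in hepatoblasts and at 13.7, 15.8, 14.6 and 11.9 CPM in mature hepatocytes. The groups were far apart, with a 4.23-fold lower level in mature hepatocytes (log2 fold change -2.08 ± 0.10 SE, adjusted p = 7.77e-10). Another gene on the same strand covers 59.3% of the Rpl13a transcript and had 0 counts in all libraries, as had the gene that overlaps Rpl24. Reads in such an overlap may have been counted for neither gene, so the 0 counts do not show that the level of Rpl13a is complete. Per kb it stood at 56.6 CPM in hepatoblasts, 61.3 in Diff. and 13.4 in mature hepatocytes.

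Rps12, a protein of the small subunit, came next at 645, 541, 508 and 547 CPM in hepatoblasts against 147, 154, 173 and 157 in mature hepatocytes, 3.55-fold lower (log2 fold change -1.83 ± 0.10). Rps15a, also of the small subunit, was at 267 to 313 against 86.6 to 95.5 CPM, 3.16-fold lower. Of the windows of its principal transcript 95.9% were unique, but that transcript has 5179 bases, where the median is 799, and other genes share part of it. The paralogue Rpl22l1 was at 65.8, 70.1, 69.2 and 67.7 CPM in hepatoblasts and at 16.9, 24.1, 27.4 and 17.1 in mature hepatocytes, 3.19-fold lower. For each of these 3 genes the groups stood apart. Rpl35, at the rim of the tunnel through which the new protein leaves, fell by 1.56 on the log2 scale, and Rpl14 by 1.52.

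Other called genes of the large subunit included Rpl3, which lies near the catalytic centre, Rpl5, which carries 5S rRNA into the ribosome, Rplp0, Rplp2 and Rpl12 of the stalk, and Rpl6, Rpl9, Rpl10a, Rpl13, Rpl15, Rpl21, Rpl23, Rpl23a, Rpl24, Rpl28, Rpl29, Rpl31, Rpl32, Rpl34, Rpl36a, Rpl38, Rpl39 and Rpl41. Those of the small subunit included Rpsa, also known as the laminin receptor, Rps19, mutated in an inherited anaemia, Rps27a, made as a fusion with ubiquitin, and Rps3, Rps3a1, Rps4x, Rps7, Rps10, Rps13, Rps16, Rps20, Rps23, Rps24, Rps26 and Rps28. Leaving out the nearly unread Rpl23a and Rpl24, the log2 fold changes of those named ran from -1.48 in Rpl3 to -1.02 in Rps3a1.

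The genes that passed the adjusted p without reaching the fold threshold included Rps6, the target of the S6 kinases, which was at 236 to 290 CPM in hepatoblasts and 136 to 169 in mature hepatocytes (log2 fold change -0.82 ± 0.10), and Rpl11, the partner of Rpl5 in binding 5S rRNA and Mdm2 (-0.98 ± 0.07). Rpl35a (-0.51), Rpl7l1 (-0.48) and Rpl10, among the last proteins to join the large subunit (-0.40), were the least lowered. For Rpl10, with 8.14% unique windows, many reads cannot be told from those of its pseudogenes.

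Rps27l, a paralogue of Rps27 that is known as a p53 target, was the sole gene on the other side. Its levels were 72.5, 67.3, 67.4 and 65.0 CPM in hepatoblasts, 99.1, 103, 108 and 91.6 in Diff. and 125, 130, 129 and 149 in mature hepatocytes. Under TMM the groups did not overlap, and mature hepatocytes were 1.96-fold above hepatoblasts (log2 fold change 0.97 ± 0.08, adjusted p = 1.71e-07), just short of the fold threshold. With library totals the difference was 0.11 on the log2 scale and did not pass (adjusted p = 0.293, and 1.43e-29 to 0.293 over all 21 alternatives).

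**Figure D2:**
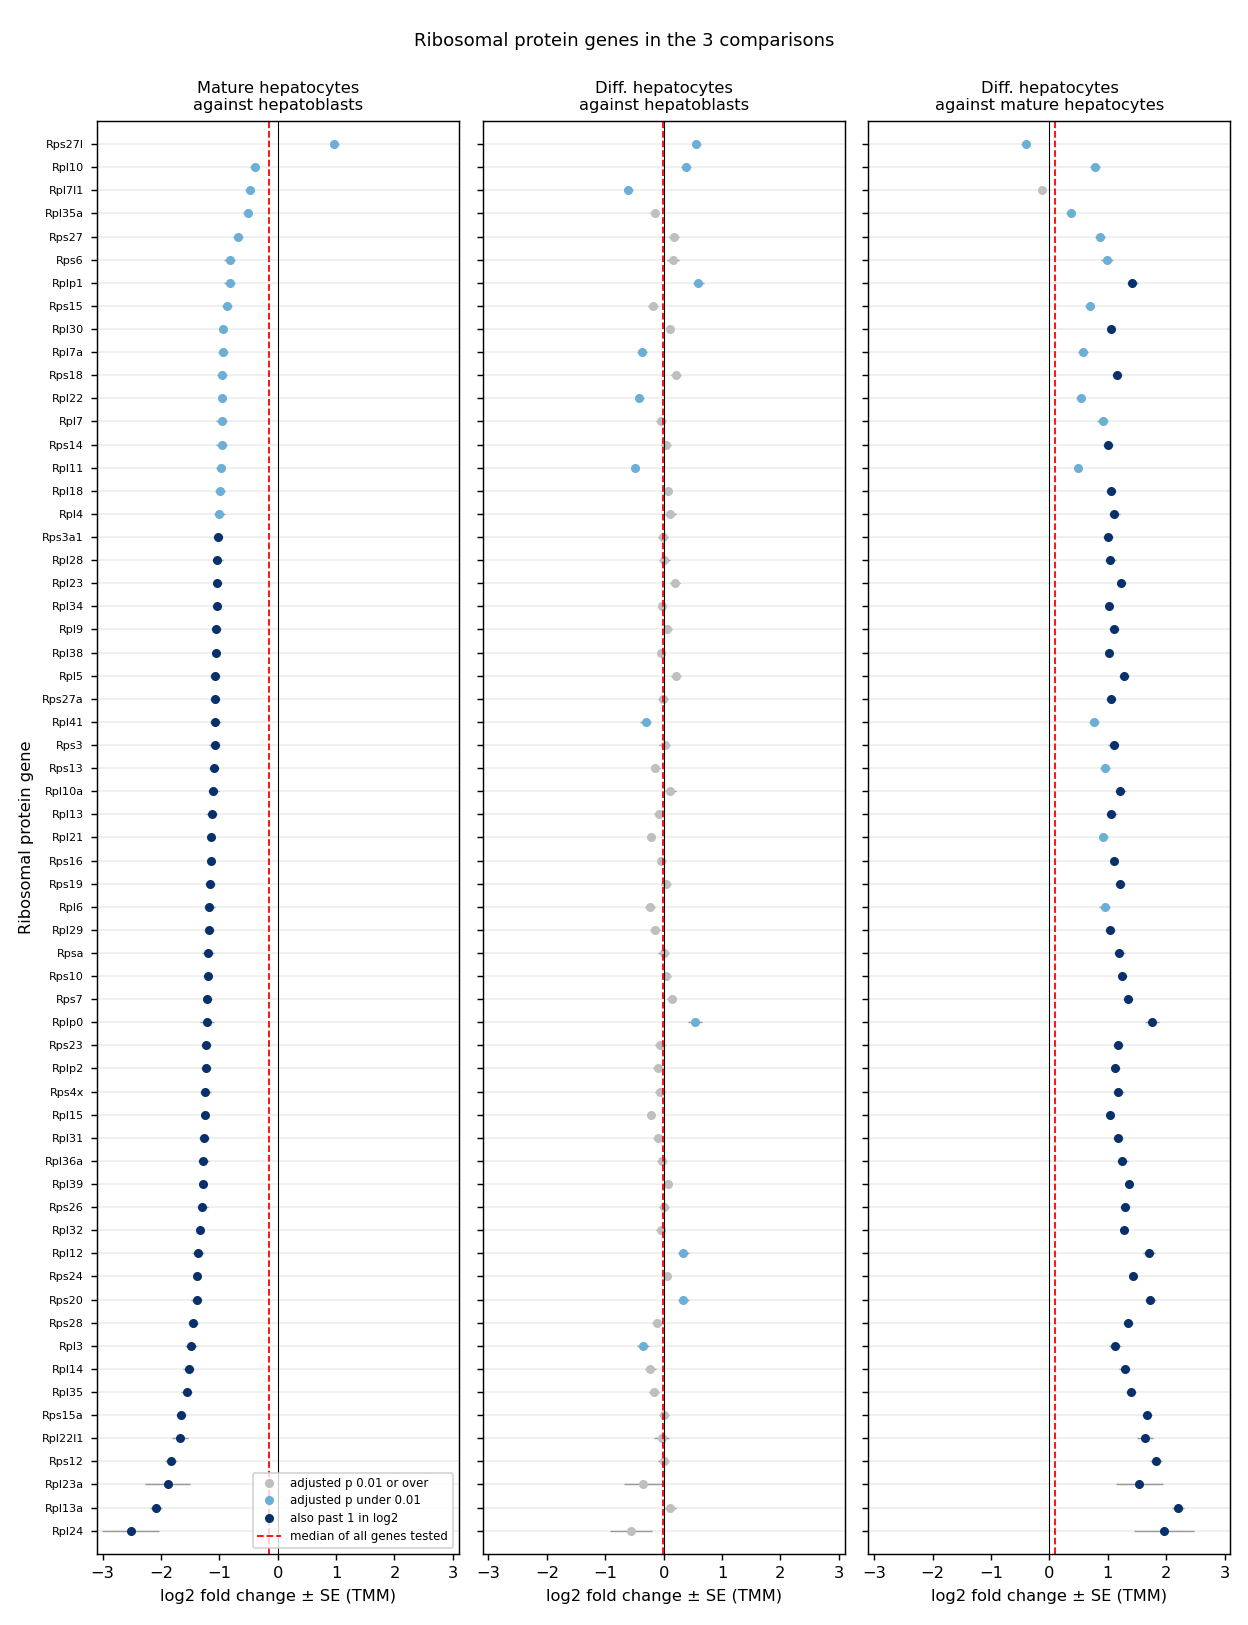
Log2 fold change under TMM scaling with its SE for the 61 tested genes named in the text, ranked by mature hepatocytes against hepatoblasts in each panel; colours give the edgeR call and the dashed line the median of all genes tested (-0.15, -0.01 and 0.09 from left to right). Nearly all points lie left of that line in the left panel, on either side of it in the middle panel and right of it in the right panel, with Rps27l apart in the outer panels and wide bars for the nearly unread Rpl24 and Rpl23a.

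Diff. hepatocytes against hepatoblasts, which asks what differs after differentiation in culture, gave a median close to that of all genes and differences in several single genes. By the rule with the fold threshold 0 of 80 genes were called, where 28.9% of all genes tested were. At the adjusted p alone 6 were higher and 6 lower in edgeR, against 23.2% and 23.7% of all genes (12 in all, against 46.8%). DESeq2 counted 17 in either direction, and the share of all genes under DESeq2 is not given here. The median log2 fold change was -0.02 and that of all genes -0.01. The middle of the ribosomal protein genes ran from -0.10 to 0.08 between quartiles, that of all genes from -0.69 to 0.68. With library totals the medians moved to -0.35 and -0.34, and 39 genes were lower and 0 higher at the adjusted p, against 35.2% and 15.8% of all genes, with 0 called, where 20.4% of all genes were called lower and 11.2% higher. Without hepatoblast replicate 1, 0 genes were called and 11 passed the adjusted p.

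The stalk, which recruits translation factors to the large subunit, held 3 of the 6 genes that were higher. Rplp1 was at 1095, 913, 993 and 980 CPM in hepatoblasts and at 1376, 1546, 1509 and 1591 in Diff. hepatocytes, with no overlap (log2 fold change 0.60 ± 0.09, adjusted p = 9.31e-05). Rplp0, its anchor on the ribosome, was at 949, 703, 730 and 653 CPM against 995, 1064, 1207 and 1157 (0.54 ± 0.12, adjusted p = 0.0015), and hepatoblast replicate 1 came closest to the cultured cells. Their partner Rplp2 did not follow, at 386 to 444 against 364 to 419 CPM, with overlap (-0.10 ± 0.08, adjusted p = 0.308). Rpl12, at the base of the stalk, was at 493 to 538 against 573 to 699 CPM (0.34 ± 0.10).

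The adjusted p of Rpl12, 0.00999, lay just under the threshold, ranged from 0.000723 to 0.948 over 21 alternatives and missed it in 15 of them. Among those were 9 of the 12 fits that each left out 1 library, namely any but hepatoblast replicate 1, Diff. hepatocyte replicate 1 and mature hepatocyte replicate 3, with values of 0.012 to 0.0351. The other genes that were higher were Rps27l (0.56 ± 0.08), Rpl10 (0.38 ± 0.08) and Rps20, a protein of the small-subunit head (0.34 ± 0.09). None of the 6 passed with library totals, where their differences ranged from 0.01 to 0.27 without a change of sign.

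Lower in Diff. hepatocytes was Rpl11, which with Rpl5 binds Mdm2 and thereby stabilises p53. It was at 395, 383, 402 and 381 CPM in hepatoblasts and at 268, 280, 290 and 277 in Diff. hepatocytes, without overlap (log2 fold change -0.49 ± 0.07, adjusted p = 7.36e-05). Rpl5 was at 265 to 298 against 300 to 345 CPM and did not pass (0.21 ± 0.08, adjusted p = 0.0489), and 7.51% of its windows were unique. The antisense gene Fam69a overlaps 46.6% of the Rpl5 transcript. The RNA-binding protein Rpl22 was at 258, 247, 240 and 242 CPM against 173, 191, 185 and 190 (-0.42 ± 0.07). Rpl7l1, a paralogue of Rpl7 present on large-subunit precursors, was at 91.9, 111, 112 and 110 CPM against 69.4, 68.5, 72.9 and 68.6 (-0.60 ± 0.08), and here too no library overlapped. Rpl7a (-0.37 ± 0.09) and the small basic Rpl41 (-0.31 ± 0.09) passed as well.

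Rpl3 (-0.36 ± 0.10) passed at an adjusted p of 0.0099 and missed it in 9 of 21 alternatives, whose adjusted p values ran from 0.000491 to 0.0282. In 7 of these a library was left out, hepatoblast replicate 1, 2 or 3 or any of the 4 Diff. hepatocyte replicates, with values of 0.0137 to 0.0282. All 6 lower genes belong to the large subunit, as do 4 of the 6 higher ones. Rpsa (0.00), Rps12 (0.00) and Rps14 (0.04) had log2 differences near 0 under TMM.

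Diff. against mature hepatocytes, which asks how far the cultured cells are from adult ones, gave higher ribosomal protein mRNA in culture for nearly every gene. Of 80 genes 50 were called higher in Diff. hepatocytes and 0 lower, where 20.2% of all genes tested were called higher and 35.8% in either direction. At the adjusted p alone 78 were higher and 1 lower, against 27.6% and 26.2% (79 in all, against 53.8%), and for 78 the libraries did not overlap in that direction, against 32.4% of all genes. The median log2 fold change was 1.06, 2.08-fold, and that of all genes 0.09. With library totals the medians were 1.59 and 0.62, with 77 genes called higher, as were 30.9% of all genes. Of the markers, 8 of 9 mesenchymal, 10 of 12 proliferation and 3 of 5 bile duct genes were called higher in Diff. than in mature hepatocytes and 8 of 8 endothelial genes lower, and their part in the result was not tested. This comparison shares its mature hepatocyte libraries with the first, and 44 genes were called in both.

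The largest differences among well-read genes were those of Rpl13a, at 58.3, 66.5, 61.9 and 70.1 CPM in the cultured cells (a log2 difference of 2.20 ± 0.10), and of Rps12, at 504, 566, 566 and 607 CPM (1.83 ± 0.10). They were followed by Rplp0 (1.76 ± 0.12), Rps20 (1.73 ± 0.09) and Rpl12 (1.70 ± 0.10), each of which had also been higher in Diff. hepatocytes than in hepatoblasts. For all 5 every Diff. hepatocyte library lay above every mature one. Genes called here but not between mature hepatocytes and hepatoblasts were Rplp1, Rpl4, Rpl18, Rpl30, Rps14 and Rps18, while Rpl6, Rpl21, Rpl41 and Rps13 were among those called there but not here.

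Smaller differences that passed were those of Rpl35a (0.36 ± 0.07), Rpl11 (0.49 ± 0.07) and Rpl22 (0.54 ± 0.07). Rps27l was lower in Diff. hepatocytes (-0.41 ± 0.08, adjusted p = 0.000641) under TMM but 0.12 higher with library totals, where it did not pass. Rpl7l1 was 0.13 lower without passing under TMM (adjusted p = 0.16) and 0.40 higher with library totals (adjusted p = 0.000237, and 9.97e-05 to 0.815 over all 21 alternatives). Rpl23a lost its call without Diff. hepatocyte replicate 2 or 3 or mature hepatocyte replicate 2 or 3, at adjusted p values of 0.0105 to 0.0155. Rpl24 lost its call in 7 of 19 alternatives, among them the fits without Diff. hepatocyte replicate 2 or 3 or mature hepatocyte replicate 1, 2 or 4, at 0.0115 to 0.0151.

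Since most of the genes moved together, each was also tested against the summed ribosomal protein counts of its library, a scale that the other mRNAs of the cell do not enter. On this scale 0 genes were called between Diff. hepatocytes and hepatoblasts, 2 between mature hepatocytes and hepatoblasts and 3 between Diff. and mature hepatocytes. The share of all genes called on it was 28.8%, 56.2% and 55.5%, which includes the shift of the other mRNAs against ribosomal protein mRNA. Of the 2 genes between mature hepatocytes and hepatoblasts 1 was higher, where 43.4% of all genes were, and 1 lower, where 12.8% were. Of the 3 between Diff. and mature hepatocytes 1 was higher in Diff. hepatocytes, where 10.1% of all genes were, and 2 lower, where 45.4% were. At the adjusted p alone the counts were 11, 23 and 31 of 80, against 45.0%, 68.8% and 68.2% of all genes. The 23 were 11 higher and 12 lower in mature hepatocytes than in hepatoblasts, against 54.2% and 14.6% of all genes. The 31 were 15 higher and 16 lower in Diff. than in mature hepatocytes, against 11.1% and 57.1%.

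Rps27l made up 2.58, 2.60, 2.61 and 2.61 of every 1000 ribosomal protein counts in hepatoblasts. It made up 4.00, 3.78, 3.91 and 3.30 in Diff. and 10.4, 10.4, 9.89 and 11.2 in mature hepatocytes. The groups did not overlap and the hepatoblast libraries, replicate 1 included, were nearly equal. Its log2 difference on this scale was 2.01 ± 0.09 between mature hepatocytes and hepatoblasts (adjusted p = 9.59e-11) and -1.48 ± 0.08 between Diff. and mature hepatocytes (adjusted p = 2.09e-09).

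Rpl13a went the other way, at 2.07, 2.46, 2.35 and 2.18 per 1000 counts in hepatoblasts, 2.35, 2.44, 2.25 and 2.52 in Diff. and 1.14, 1.27, 1.12 and 0.892 in mature hepatocytes. The embryonic and cultured libraries overlapped and the adult ones lay below both, by 1.04 ± 0.11 in log2 against hepatoblasts (adjusted p = 6.59e-07). This difference is close to the fold threshold. Without hepatoblast replicate 2 or without mature hepatocyte replicate 4, 1 gene in place of 2 was called between these groups.

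Rpl7l1 was at 3.27, 4.29, 4.34 and 4.40 per 1000 in hepatoblasts, 2.80, 2.51, 2.64 and 2.47 in Diff. and 6.21, 6.07, 5.87 and 5.87 in mature hepatocytes. All 3 groups stood apart, and it was lower in Diff. than in mature hepatocytes by 1.20 ± 0.10 in log2 (adjusted p = 8.2e-08). Rplp1 was highest in Diff. hepatocytes, at 56.0 ± 1.13 per 1000 against 38.0 ± 1.86 in hepatoblasts and 44.3 ± 2.43 in mature hepatocytes. Rplp0 likewise stood at 41.2 ± 2.07 against 28.8 ± 3.38 and 25.7 ± 0.809. Rpl11, in contrast, was at 10.4 ± 0.357 in Diff. hepatocytes against 14.9 ± 0.672 and 15.6 ± 0.243, and Rpl22 at 6.88 ± 0.126 against 9.42 ± 0.249 and 10.01 ± 0.520.

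Rps12 was at 21.4 ± 1.41 and 20.9 ± 0.680 per 1000 in hepatoblasts and Diff. hepatocytes and at 12.4 ± 0.627 in mature hepatocytes, and Rps15a at 11.1 ± 0.535, 10.9 ± 0.253 and 7.21 ± 0.187. Rpl10 was at 10.8 ± 0.386, 13.7 ± 0.229 and 16.8 ± 0.779, and the groups differed pairwise, with adjusted p values of 0.00204 for Diff. hepatocytes and 4.38e-06 for mature hepatocytes against hepatoblasts and 0.00356 between them.

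**Figure D3:**
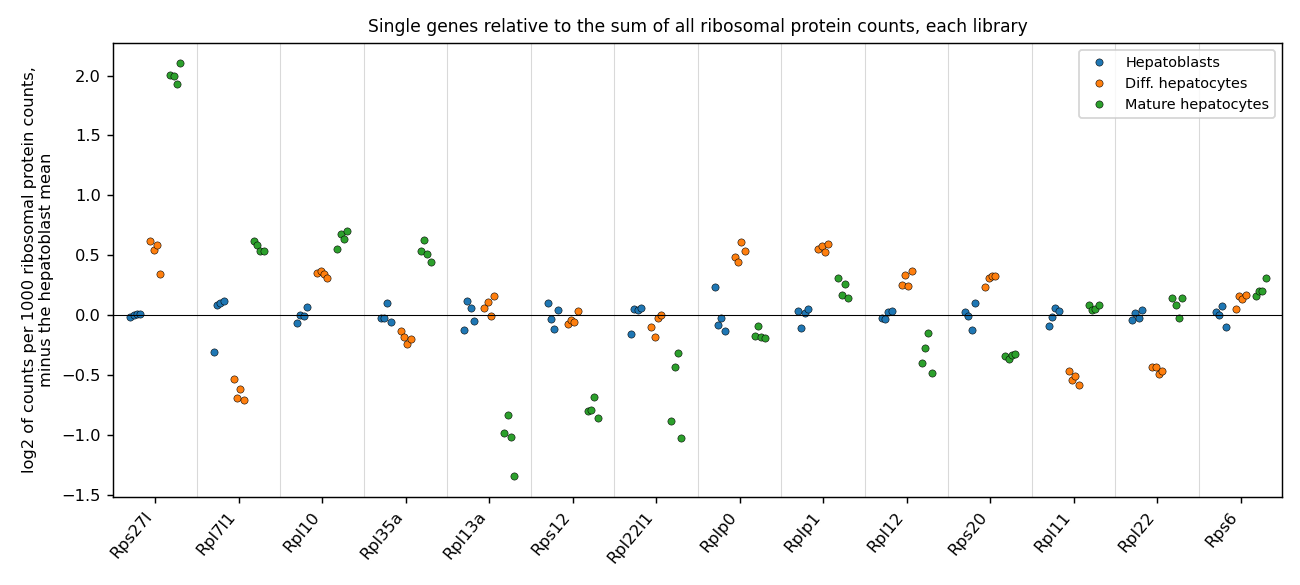
Log2 of counts per 1000 ribosomal protein counts in each library, less the hepatoblast mean of the gene, for 14 genes named in the text; a point is a library and a colour a group of 4 libraries. Rps27l lies near 2 in mature hepatocytes and near 0.5 in Diff. hepatocytes, each mature hepatocyte library lies below all others for Rpl13a and Rps12, and each Diff. hepatocyte library for Rpl11 and Rpl22.

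Some ribosomal protein genes have a close paralogue, and the ratio of the pair within a library does not depend on scaling. Counts of the paralogue are given as a percent of those of its partner, without correction for length. Of 7 pairs, 4 had both genes past the count filter, giving 12 comparisons by two-sided exact permutation tests over libraries. With 4 libraries against 4 the smallest p such a test allows is 0.0286, or 0.0343 after adjustment over the 12.

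Rps27l stood at 32.5%, 32.9%, 31.9% and 31.6% of Rps27 in hepatoblasts, at 44.0%, 41.0%, 45.8% and 37.2% in Diff. and at 103%, 103%, 102% and 98.9% in mature hepatocytes. The adult level was 3.15-fold above that of hepatoblasts and the groups did not overlap. Of the windows of Rps27, 1.48% were unique, since the gene Rps27rt shares nearly all of its sequence, and reads of the 2 cannot be told apart. Rps27l itself had 88.0% unique windows.

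Rpl22l1, which can replace Rpl22 in the large subunit, was at 25.5%, 28.4%, 28.9% and 27.9% of Rpl22 in hepatoblasts. In Diff. hepatocytes it was at 34.9%, 32.9%, 38.3% and 38.0%, and in mature hepatocytes at 13.6%, 19.3%, 22.6% and 12.4%. Culture and adult liver thus lay on opposite sides of the hepatoblasts. Rpl7l1 showed the reverse order, with 24.6% ± 4.04 of Rpl7 in hepatoblasts, 16.5% ± 0.890 in Diff. and 34.0% ± 1.75 in mature hepatocytes.

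All 9 comparisons of these 3 pairs had the smallest p that the exact permutation test allows, 0.0343 after adjustment. The direct differences between Diff. and mature hepatocytes were 2.43-fold for Rps27l/Rps27, 2.18-fold for Rpl22l1/Rpl22 and 2.06-fold for Rpl7l1/Rpl7. Rps4l, annotated as a transcribed pseudogene and for that reason not among the 83 genes, was at 14.4% ± 2.96 of Rps4x in hepatoblasts, 7.10% ± 0.954 in Diff. and 10.98% ± 2.53 in mature hepatocytes. Its ratio was 2.01-fold lower in Diff. hepatocytes than in hepatoblasts, again at the smallest p of the exact permutation test, 0.0343 after adjustment. The differences between mature hepatocytes and hepatoblasts (1.32-fold, adjusted p = 0.143) and between Diff. and mature hepatocytes (1.53-fold, adjusted p = 0.0623) did not reach that smallest p in the same exact test. Without hepatoblast replicate 1 the log2 differences from hepatoblasts in Diff. and mature hepatocytes were 0.38 and 1.66 for Rps27l/Rps27, 0.34 and -0.79 for Rpl22l1/Rpl22, -0.68 and 0.36 for Rpl7l1/Rpl7, and -1.13 and -0.52 for Rps4l/Rps4x, all in the direction found with it. For Rpl3l, Rpl10l and Rpl39l no ratio is given because of their few counts.

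**Figure D4:**
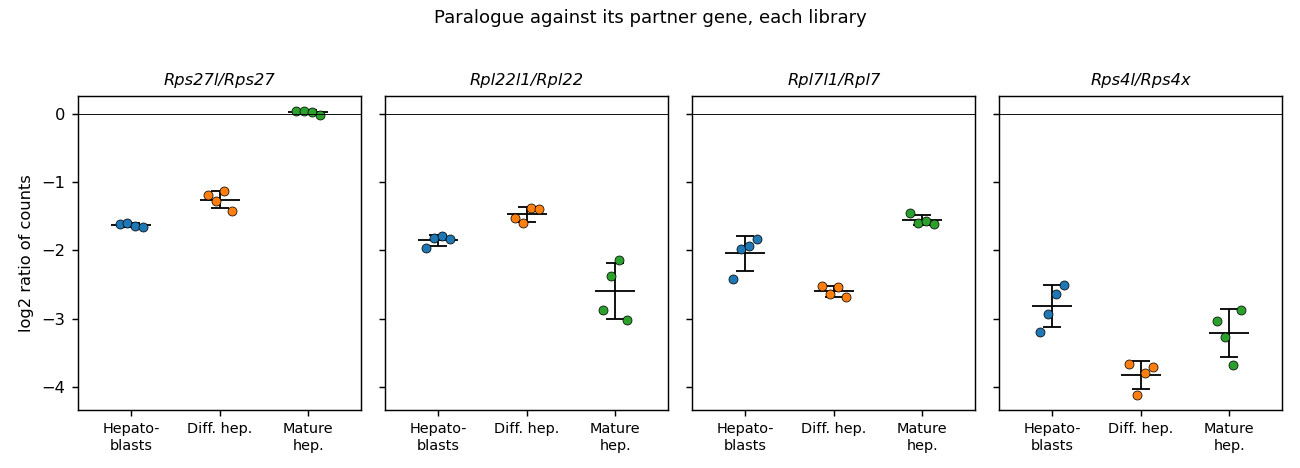
Log2 ratio of paralogue to partner counts in each library for the 4 pairs with enough reads, with bars for the mean and SD of 4 libraries in each group and a line at equal counts. Rps27l/Rps27 reaches equal counts in mature hepatocytes, at 98.9% to 103%, and the Rpl22l1/Rpl22 and Rpl7l1/Rpl7 ratios have opposite orders across the groups.

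Features that the choice of genes had not used separated the fold changes little. Between mature hepatocytes and hepatoblasts, the median log2 fold change was -1.06 in the 25 tested genes with a tract at the start and -1.07 in the 35 with a promoter window and no tract. For the snoRNA hosts it was -1.14 and for the other genes -1.04. The 4 X-linked genes had a median of -1.26, and the sex of the cells may differ between these groups. Without hepatoblast replicate 1 these medians were -1.05, -1.04, -1.12, -1.01 and -1.24. Genes with at least 50% unique windows had a median of -1.06 and the others of -1.07, and 25 of 41 and 24 of 39 were called. Of the genes printed above, the tract was present in Rpl13a, the lowest of the well-read genes, and in Rps27l, the highest, and absent at the annotated start of both Rps12 and Rplp0.

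The other genes of protein synthesis were described by lists, set beside the ribosomal protein genes. Counts at the adjusted p are to be read against 33.2% of all genes lower and 29.4% higher in mature hepatocytes than in hepatoblasts, and 23.7% lower and 23.2% higher in Diff. hepatocytes. For called genes the shares were 24.7% lower and 20.1% higher in mature hepatocytes, and 14.0% lower and 14.9% higher in Diff. hepatocytes. Among 78 ribosome assembly factors, 63 were lower and 5 higher in mature hepatocytes than in hepatoblasts at the adjusted p, with 25 called lower, and the median log2 fold change was -0.72 against -0.15 for all genes. Without hepatoblast replicate 1, 61 were lower and 6 higher, with 19 called lower and 1 higher. Nop58, which holds the box C/D snoRNAs that guide rRNA methylation, was at 182 ± 18.6 CPM in hepatoblasts, 93.1 ± 2.88 in Diff. and 28.9 ± 2.87 in mature hepatocytes. Relative to hepatoblasts, Diff. hepatocytes differed by -0.97 ± 0.09 (SE) and mature ones by -2.66 ± 0.10 on the log2 scale. Gar1, of the complexes that guide pseudouridylation, was at 42.4 ± 6.28, 29.9 ± 2.14 and 7.97 ± 0.658 CPM.

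In Diff. hepatocytes against hepatoblasts, 29 of the 78 assembly factors were lower and 6 higher, or 27 and 9 without hepatoblast replicate 1. The median was -0.18, and 5 were called lower, where 14.0% of all genes were. Those called included Tcof1, a nucleolar factor of rRNA transcription, at 62.3 ± 8.74 against 18.3 ± 1.37 CPM (log2 fold change -1.77 ± 0.11), and Fbl, the rRNA methyltransferase, at 90.1 ± 9.03 against 38.0 ± 1.53 CPM (-1.24 ± 0.10). Of 20 genes of RNA polymerase I, which transcribes rRNA, 10 were lower and 1 higher in mature hepatocytes, among them Polr1a (-1.37 ± 0.08), and in Diff. hepatocytes 1 was called, the factor Ubtf (-1.20 ± 0.09). A difference between the lists was not tested.

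Among the 8 partner genes of the ribosome, Rack1, a scaffold on the small subunit, was at 816 ± 32.3 CPM in hepatoblasts, 962 ± 64.6 in Diff. and 334 ± 23.8 in mature hepatocytes. The nucleolar chaperone Npm1 was at 588 ± 87.4, 484 ± 53.4 and 96.3 ± 13.7 CPM. Both were called lower in mature hepatocytes than in hepatoblasts and higher in the cultured than in the adult cells. In all, 5 of the 8 were lower in mature hepatocytes at the adjusted p and 0 higher, also without hepatoblast replicate 1.

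Of 38 initiation factors 20 were lower and 3 higher in mature hepatocytes than in hepatoblasts, with a median of -0.32, and 1 was called, the poly(A)-binding protein Pabpc4 (-2.0 ± 0.22). Of 11 elongation and termination factors 5 were lower and 0 higher. Those called were subunits of or linked to elongation factor 1, Eef1g (-1.62 ± 0.08), Eef1e1 and Eef1b2, whereas Eef2, which moves the ribosome along the mRNA, was at 1951 ± 128 CPM in hepatoblasts, 3317 ± 344 in Diff. and 2126 ± 167 in mature hepatocytes. Eef2 passed in Diff. hepatocytes against hepatoblasts (0.77 ± 0.11, adjusted p = 5.62e-05). Without hepatoblast replicate 1, 18 initiation factors were lower and 4 higher in mature hepatocytes, as were 4 and 1 elongation and termination factors, 9 and 2 genes of RNA polymerase I, 18 and 23 mitochondrial ribosomal proteins and 4 and 14 of the regulators described next.

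The ribosomal proteins of mitochondria, which are encoded by other genes, were compared as a second ribosome of the same cells. Of 77 tested, 24 were higher and 17 lower in mature hepatocytes than in hepatoblasts under TMM, where 29.4% of all genes were higher and 33.2% lower. The median was 0.07 and became -0.78 with library totals, against -0.15 and -1.0 for all genes. With library totals 1 was higher and 66 lower, where 15.1% of all genes were higher and 56.7% lower. The cytosolic ribosomal proteins had medians of -1.07 and -1.92 on the same scales, and the difference between the lists was not tested.

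Regulators of TOP mRNAs and of ribosome synthesis went both ways, with 14 of 29 higher and 4 lower in mature hepatocytes and 10 higher and 8 lower in Diff. hepatocytes against hepatoblasts. Of all genes 29.4% were higher and 33.2% lower in mature hepatocytes, and 23.2% and 23.7% in Diff. hepatocytes. Mycn, a growth-promoting transcription factor, was at 9.92 ± 2.21 CPM in hepatoblasts, 2.61 ± 0.571 in Diff. and 0.671 ± 0.420 in mature hepatocytes. Deptor, an inhibitor of mTOR, went the other way, at 45.4 ± 10.1, 162 ± 15.8 and 394 ± 48.4 CPM. Larp1b, a relative of the TOP mRNA-binding protein Larp1, was at 23.0 ± 0.925, 49.5 ± 2.59 and 124 ± 8.88 CPM. Ddit4, a stress-induced inhibitor of mTOR, was at 16.0 ± 3.31 CPM in hepatoblasts and 35.5 ± 18.9 CPM in mature hepatocytes, and was higher in Diff. hepatocytes than in either, by 3.97 ± 0.33 and 2.82 ± 0.32 in log2. All 4 were called in each of the 3 comparisons, but the difference of Ddit4 between mature hepatocytes and hepatoblasts (1.15 ± 0.31, adjusted p = 0.00418) was 0.30 in log2 with library totals, and mature hepatocyte replicate 3, at 17.9 CPM, lay below the highest hepatoblast library. Deptor, Larp1b and Mycn kept their directions with library totals, but Larp1b then missed the fold threshold in Diff. hepatocytes against hepatoblasts (0.78) and against mature hepatocytes (-0.80), and so did Deptor against mature hepatocytes (-0.75). With library totals 4 of the 29 regulators were higher and 19 lower in mature hepatocytes than in hepatoblasts, and 8 higher and 11 lower in Diff. hepatocytes. Of all genes 15.1% were then higher and 56.7% lower in mature hepatocytes, and 15.8% and 35.2% in Diff. hepatocytes.

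**Figure D5:**
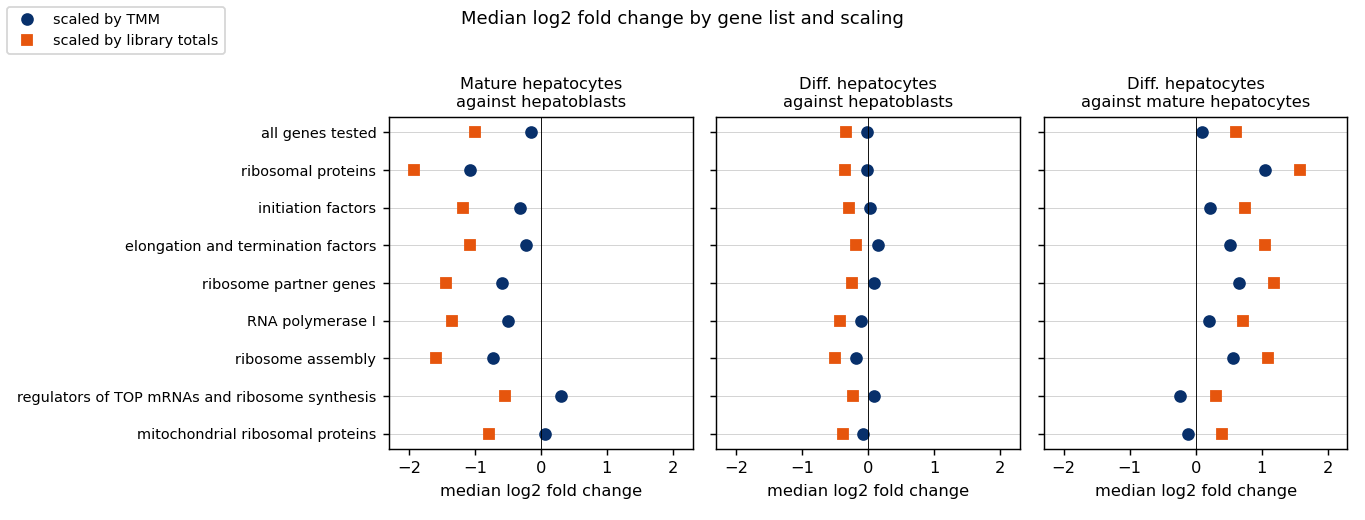
Median log2 fold change of the ribosomal protein genes, of 7 other lists of the pathway and of all genes tested, in the 3 comparisons, with a circle for TMM scaling and a square for library totals. Against hepatoblasts, mature hepatocytes have their lowest median in the ribosomal protein genes (-1.07 under TMM and -1.92 under library totals), followed by ribosome assembly factors (-0.72 and -1.58), while regulators and mitochondrial ribosomal proteins lie above the median of all genes.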

How the data were processed

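Poly(A) RNA libraries of 12 samples, 4 per group as the labels name them, were analysed. The authors checked reads with FastQC 0.11.2 and Picard 2.10.2, aligned them to GRCm38 and quantified genes with STAR 2.5.2b, and deposited raw read counts per Ensembl gene (release 92). The deposited counts had not been normalized, and reads of near-identical copies may be missing from or split between genes. The strand setting of the counting was not given in the sources used here.

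Of 53715 gene identifiers, 53620 matched GENCODE M21, which gave symbols, types and transcripts. Genes that exceeded 10 counts in at least 1 library were tested with edgeR 4.0.16 in R 4.3.3 (TMM, quasi-likelihood test, all 12 libraries in 1 fit by group, Benjamini-Hochberg adjustment over all genes tested), with a second fit scaled to the ribosomal protein counts. TMM factors were 1.23 to 1.44 in hepatoblasts, 1.03 to 1.08 in Diff. hepatocytes and 0.677 to 0.778 in mature hepatocytes. Thresholds followed the study's, which used DESeq2 1.22.2, and DESeq2 1.42.0 was run as an alternative. Paralogue ratios had 0.5 counts added to each gene. The uniqueness of 75-base windows was judged on both strands against all GENCODE M21 transcripts, overlapping genes included, not the genome.

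The genes, lists and tests were chosen with earlier results of these data known. Genes named are those called in a comparison, the 5 highest and 5 lowest per comparison with a mean of at least 10 CPM, the paralogue pairs, those of known role or highest level per length, those under the filter, and up to 4 called genes per list; Eef2 was named after its values were seen. Some genes that met this rule are not reported here but enter all counts and medians. The fits were tested on simulated data. Biological replicates were taken as independent, and errors after ± are SD over 4 libraries for levels and SE for log2 fold changes.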

Additional observations from a re-analysis of the deposited data

Results flagged for a closer look

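A total of 111 groups of 4 libraries were searched for a library whose gap to its nearest neighbour took up most of the range of its group, over 31 ribosomal protein genes, the shares, the paralogue ratios and the totals. The search found 5 such values, in 3 libraries, and chance alone gives about 1 in 20 groups. Rpl7l1 was at 91.9 CPM in hepatoblast replicate 1 against 110 to 112 in the other 3, and this is the library with high erythroid and proliferation markers. Rplp0 was at 304 CPM in mature hepatocyte replicate 1 against 331 to 335. In Diff. hepatocyte replicate 1, Rps15 was at 446 CPM against 493 to 502, Rps2 at 654 against 731 to 745 and Rps6 at 261 against 308 to 317. That library also had the highest summed bile duct markers of its group, 213 CPM against 69.9 to 93.5, and mesenchymal markers of 2965 CPM against 1221 to 2007. Whether these bear on the 3 genes was not tested.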

How the results depend on the processing

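Of the values that answer a comparison, 250 of 252 stayed within the limits set when 1 library was left out. So did 99 of 126 under the other alternatives. Counts of genes were held to a ratio, and medians, shares and paralogue ratios to the SD between libraries. Leaving out 1 of 4 libraries cannot move a mean that far, so the outcome was fixed in advance for shares and paralogue ratios. Paralogue ratios with 1 count added to each gene were instead judged by their permutation p. Over the fits that left out 1 library, the genes called ranged from 47 to 56 between mature hepatocytes and hepatoblasts. They ranged from 44 to 53 between Diff. and mature hepatocytes, and stayed at 0 between Diff. hepatocytes and hepatoblasts. On the scale of ribosomal protein counts they stayed at 0 between Diff. hepatocytes and hepatoblasts and at 3 between Diff. and mature hepatocytes, and ranged from 1 to 3 between mature hepatocytes and hepatoblasts, with 1 without hepatoblast replicate 2 and without mature hepatocyte replicate 4.

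For mature hepatocytes against hepatoblasts, 79 genes were called with library totals and 79 without the 50 most abundant genes. With the fold threshold inside the test (glmTreat) 25 were called. For glmTreat, DESeq2 and the fits without the 50 most abundant genes, shares of all genes are not given here. Their counts show only how far the calls depend on the setting. Among the 41 genes with at least 50% unique windows 25 were called, 41 passed the adjusted p and 1 was called relative to ribosomal protein counts. The median was -1.92 with library totals, -1.74 without the 50 most abundant genes and -1.19 in genes with at least 10 counts in every library.

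For Diff. against mature hepatocytes the corresponding counts were 77, 77, 22 and 26, with 40 at the adjusted p among the genes with unique windows. The medians were 1.59, 1.61 and 1.16. For Diff. hepatocytes against hepatoblasts, 39 genes passed the adjusted p with library totals and 7 when genes with at least 1 count were kept, and the median was -0.35 with totals and -0.13 without the 50 most abundant genes. The shares in hepatoblasts, Diff. hepatocytes and mature hepatocytes were 4.60%, 4.35% and 1.40% without the 50 most abundant other genes and 2.04%, 1.72% and 0.549% for genes with unique windows, which are fewer.

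Between Diff. and mature hepatocytes, Rpl7l1 turned to 0.40 with library totals and 0.43 without the 50 most abundant genes, and Rps27l to 0.12 and 0.15. DESeq2 called 0, 50 and 50 genes in the 3 comparisons.

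Replicate numbers are shared across groups, and nothing in the labels ties same-numbered libraries to each other. Between Diff. hepatocytes and hepatoblasts the deviations of same-numbered libraries correlated at 0.324, -0.0589, 0.246 and 0.184, and in the other comparisons at -0.0813 to 0.0923. Libraries of different number were not set against each other, so these values cannot show whether same-numbered libraries form pairs. With the replicate block 0, 49 and 49 genes were called, and 9, 80 and 78 passed the adjusted p. Rpl12 (adjusted p = 0.0195) and Rpl3 (0.0185) missed it under the block between Diff. hepatocytes and hepatoblasts, and Rpl24 (0.0135) between Diff. and mature hepatocytes. Reads of copies that share sequence, and the few reads of Rpl24, Rpl23a, Rpl10l, Rpl39l and Rpl3l, limit what can be said of these genes.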
